A study of Mus musculus with 4 samples.

Results

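Genes for 10 surface receptors of resident and innate-like lymphocytes were followed: Cd160, Cd7, Cd244, Cd69, Cd96, Crtam, Cd226, Slamf7, Cd6 and Thy1. Members were all probe sets of the array whose single platform gene symbol was 1 of these 10 genes, which gave 14 of 45101 probe sets and 10 of 18193 genes. Cd244 is listed on the platform as Cd244a and was matched by its gene number and synonym. Cd160 was read on 4 probe sets, Cd244 on 2 and each other gene on 1.

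RNA came from sorted gamma delta T cells that reside in the epithelium of the mouse colon. Both groups were conventionally raised C57b/6 mice: 2 arrays from untreated mice, and 2 from mice that drank 2% dextran sulfate sodium (DSS) for 5 days, an agent that damages the lining of the colon, followed by 3 days on normal water. No engineered allele is named in the labels, and ages, and whether the 2 arrays of a group came from separate mice, pools or sorts, are not given in them. The p-values therefore measure the spread between these arrays, which may be technical.

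These receptors tune how a resident lymphocyte reads its neighbours. Cd244 and Slamf7 belong to the SLAM family, whose cytoplasmic tails recruit small adaptor proteins; Cd244 binds Cd48, and Slamf7 binds itself on another cell. Cd96, Cd226 and Crtam are immunoglobulin-type receptors for nectins and nectin-like molecules, which epithelial cells carry at their junctions. Cd160 is a receptor of the HVEM network and is characteristic of intestinal intraepithelial lymphocytes, Cd69 marks activated and tissue-resident cells and holds them in tissue by removing the exit receptor S1pr1 from the surface, and Thy1, Cd7 and Cd6 are T-lineage surface molecules.

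The deposited values are signals, 1 linear intensity per probe set and array, already scaled by the authors to a common trimmed mean. Of the 10 genes, 8 had signals above the median of the array on all 4 arrays. Cd6 was above it on 2 arrays and Cd226 on 1, so Cd226 did not pass the filter on dim probe sets and was not tested, which left 9 of 10 genes. Signals were compared as log2(signal + 32), a scale that understates changes of dim genes, and signals of different genes were not set against each other because probes bind with different strength. In the fit over all 12424 genes that passed the filter, limma called 0 of the 9 receptor genes after Benjamini-Hochberg adjustment, where 0% of all genes were called. At an unadjusted p under 0.05 it found 0 of 9, against 7.52% of all genes. Their median log2 difference, DSS minus untreated, was -0.07, beside -0.07 for all genes tested.

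**Figure D1:**
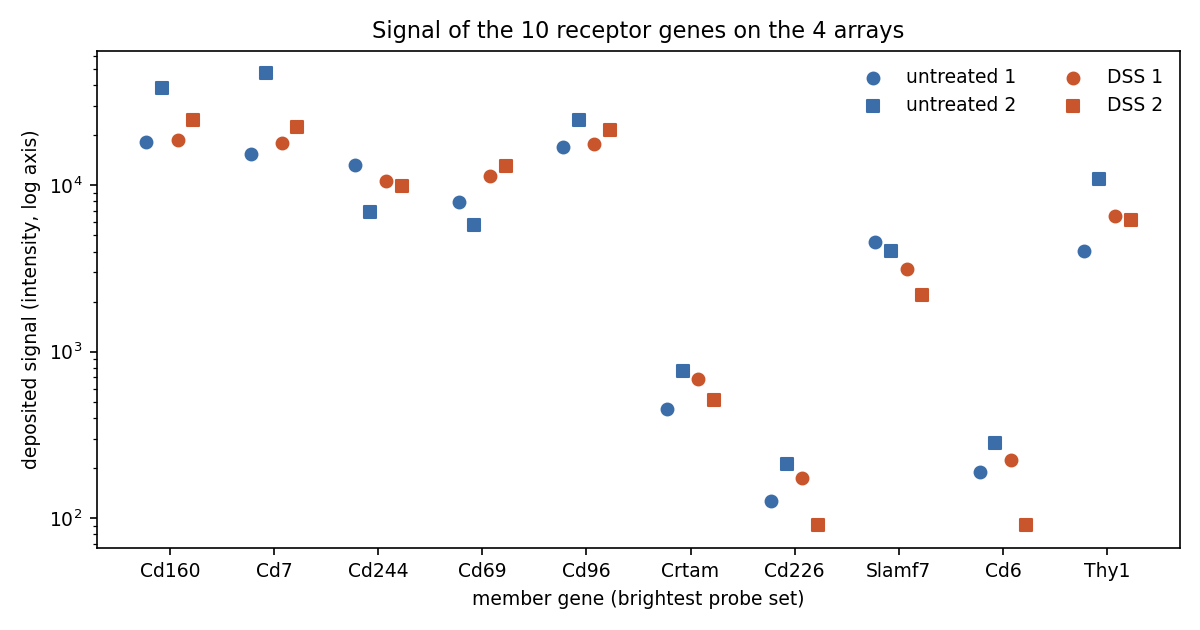
Deposited signal (log axis) of the brightest probe set of each of the 10 receptor genes on the 2 untreated (blue) and 2 DSS (orange) arrays; each point is 1 array. Both DSS points lie above both untreated points for Cd69 and below them for Slamf7, and for 6 of the 9 tested genes both lie between the untreated points.

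The arrays differ in ways that bear on every value here. The added bacterial hybridisation controls averaged 82269 and 59067 on the untreated and 14372 and 15271 on the DSS arrays over 18 probe sets, so the group and the handling of its arrays cannot be told apart. T cell markers were present on all 4 arrays: 5 of 7 listed markers had a single-symbol probe set, all 5 were above the array median on each array, and their summed signal was 26421 and 43578 on the untreated and 39743 and 37178 on the DSS arrays. Markers of macrophages and dendritic cells moved with the groups, with 11 of 12 higher in the DSS pair without overlap and a summed signal of 11475 and 5731 against 65998 and 90705. Of these, C1qc passed the filter only through the DSS arrays. The defining macrophage gene Csf1r had 4342 and 1162 against 33267 and 40991. Summed signals of B cell, neutrophil and stromal markers overlapped between the groups. Those of epithelial markers were 9810 and 7554 against 12414 and 9814, nearly touching, with 1 of 6 tested markers higher and 1 lower on both DSS arrays. Those of NK and innate lymphoid markers were 369 and 520 against 289 and 345, with 0 of 2 tested markers separating the groups. The cells were sorted as gamma delta T cells, and where these signals came from was not tested. In bulk RNA, fewer cells that carry a receptor and less RNA of it per cell cannot be told apart.

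Cd69 had the largest positive log2 difference of the 9 receptor genes. Its signal was 7885 and 5790 without treatment and 11423 and 12994 after DSS. Both DSS arrays lay above both untreated arrays, and Cd69 was the 1 of 9 tested members for which this held, against 17.2% of all genes. The log2 difference was 0.85 ± 0.38 (SE, n = 2 per group; limma adjusted p = 0.648), with a 95% interval of -0.04 to 1.73. The 500 genes nearest to it in mean signal had a median of 0.11. Its estimate was positive under all 15 other settings, from 0.63 to 1.19. Cd69 has 1 probe set, so the filter, probe set, trend and replicate block settings could not change this estimate. Leaving out an array could not turn the sign, since the groups of Cd69 did not overlap. With each array scaled to the T cell markers its groups overlapped, although the estimate was still 0.73. Cd69 removes S1pr1 protein from the surface, which was not measured here. The RNA of S1pr1 had 381 and 406 in the untreated pair and 246 and 450 in the DSS pair, with a log2 shift of -0.22 ± 0.48 (limma adjusted p = 0.906). Its 2 groups overlapped, as did those of Klf2, a transcription factor that drives S1pr1, with 395 and 239 against 221 and 283.

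Slamf7 differed in the other direction. Its signal was 4536 and 4021 without treatment and 3157 and 2177 after DSS. Both DSS arrays lay below both untreated arrays, and this too held for 1 of 9 tested members, against 23.8% of all genes. The log2 difference was -0.70 ± 0.39 (SE, n = 2 per group; limma adjusted p = 0.679), with a 95% interval of -1.63 to 0.23, while the 500 genes of nearest signal had a median of 0.18. The estimate was negative under all 15 other settings, from -0.96 to -0.35, and the groups overlapped after scaling to a common median. As for Cd69, the filter, probe set, trend and replicate block settings could not change the estimate. Leaving out an array could not turn its sign. Slamf7 is also made by macrophages and plasma cells. The macrophage markers differed in the opposite direction to it, and their part in its value was not tested.

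Cd244, the other SLAM receptor, had no such separation. On its brighter probe set it had 13337 and 6928 in the untreated pair and 10678 and 9913 in the DSS pair, so both DSS arrays lay between the untreated ones. The log2 difference was 0.10 ± 0.43 (limma adjusted p = 0.956), with a 95% interval of -0.93 to 1.12. Its second probe set had 1448 and 1393 against 1882 and 1039, a log2 shift of -0.02. In the RefSeq order of coding genes Cd244a and Slamf7 have 1 gene between them, Ly9, and Cd48 follows Slamf7.

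The start regions of these neighbouring receptors are shown because Cd244 and Slamf7 are near neighbours with a different order of arrays. They are RefSeq windows of build GRCm38.p6, 250 bases before to 50 after the annotated start, written 5′ to 3′ on the gene's strand. Of the 10 receptor genes, 4 had such a window: Cd160, Cd244, Cd96 and Slamf7. Capitals mark matches on either strand to RUNX (TGTGGT), T-box (GGTGTGA), ETS (AGGAAG) and AP-1 (TGANTCA) letters. The Cd244 window is chr1:171558943-171559242 on the plus strand, and the Slamf7 window is chr1:171648950-171649249 on the minus strand.
Cd244: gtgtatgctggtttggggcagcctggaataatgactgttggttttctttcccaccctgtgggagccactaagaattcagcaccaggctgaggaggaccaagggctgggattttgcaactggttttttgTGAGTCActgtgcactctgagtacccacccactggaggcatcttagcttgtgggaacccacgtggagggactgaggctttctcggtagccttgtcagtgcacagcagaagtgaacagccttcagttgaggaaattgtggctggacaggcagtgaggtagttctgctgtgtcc
Slamf7: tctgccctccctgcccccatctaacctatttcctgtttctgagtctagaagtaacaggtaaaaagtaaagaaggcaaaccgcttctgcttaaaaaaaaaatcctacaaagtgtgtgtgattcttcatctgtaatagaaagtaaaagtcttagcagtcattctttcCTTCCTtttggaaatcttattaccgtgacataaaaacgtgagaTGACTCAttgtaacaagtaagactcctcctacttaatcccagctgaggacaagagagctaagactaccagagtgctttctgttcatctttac

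Both windows held 1 AP-1 match, which 7.81% of all 32841 windows of this length hold. The Slamf7 window also held 1 ETS match, as 35.4% of windows do. Neither held the RUNX letters (16.8% of windows) or the T-box letters (3.98%). A match describes these letters and does not show that a factor binds there.

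**Figure D2:**
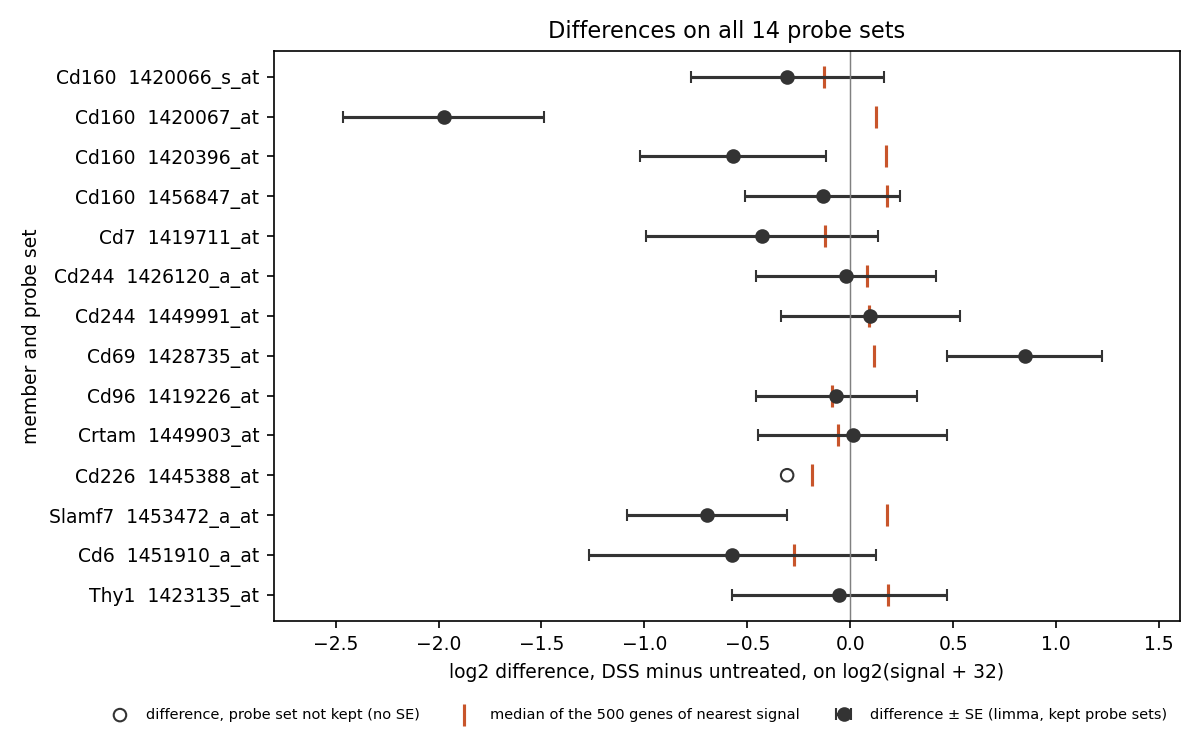
Log2 difference, DSS minus untreated, on log2(signal + 32) for each of the 14 probe sets, with the limma standard error for the 13 kept probe sets; the vertical tick is the median difference of the 500 genes of nearest signal. Cd69 at 0.85 and the Cd160 probe set 1420067_at at -1.98 stand at the 2 ends, and none passed adjustment.

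Cd160, the HVEM receptor, was read differently by its 4 probe sets. The brightest, 1420066_s_at, had 18293 and 38465 in the untreated pair and 18619 and 24736 in the DSS pair, with a log2 shift of -0.31 ± 0.46 (limma adjusted p = 0.858). Both DSS arrays lay between the untreated arrays on it, and the ending _s_at marks a probe set that can bind related transcripts, so its value is uncertain. Probe set 1420067_at had 2992 and 3945 in the untreated pair and 562 and 1276 in the DSS pair. Here both DSS arrays lay below both untreated arrays, by a log2 shift of -1.98 ± 0.49 (SE, n = 2 per group), the largest difference in size of the 14 probe sets. In a fit over all 20224 kept probe sets limma gave it an adjusted p of 0.676 and an unadjusted p of 0.00476. That fit called 0 of 13 kept member probe sets, with 0% of all kept probe sets called, and this probe set was the 1 of 13 under an unadjusted p of 0.05, against 7.15% of all.

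The other readings of Cd160 gave smaller differences. Probe set 1420396_at had 1860 and 3718 in the untreated pair and 1686 and 1842 in the DSS pair, a log2 shift of -0.57 ± 0.45, with both DSS arrays just below the lower untreated array. Probe set 1456847_at had 2178 and 2718 against 2350 and 2086, a log2 shift of -0.13 ± 0.38, and its groups overlapped. Within each array, the log2 signal of 1420067_at minus that of 1420066_s_at was -2.60 and -3.28 on the untreated and -4.97 and -4.24 on the DSS arrays. The same within-array difference was -3.28 and -3.36 against -3.44 and -3.72 for 1420396_at, and -3.05 and -3.81 against -2.97 and -3.55 for 1456847_at. These within-array differences were lower on both DSS arrays for 1420067_at and 1420396_at and overlapped for 1456847_at. They were taken on log2(signal + 32), so the scaling of an array cancels only approximately, and the difference between probe sets was not tested. Over 14 other settings the estimate of 1420067_at was between -2.55 and -1.41. Limma called it without untreated replicate 1 (adjusted p = 0.000839), where it called 12.2% of all kept probe sets, and without untreated replicate 2 (adjusted p = 0.00941), where it called 5.95%. In both fits the lone untreated array is assumed to vary like the DSS pair. In the other settings its adjusted p was 0.114 to 1.00.

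**Figure D3:**
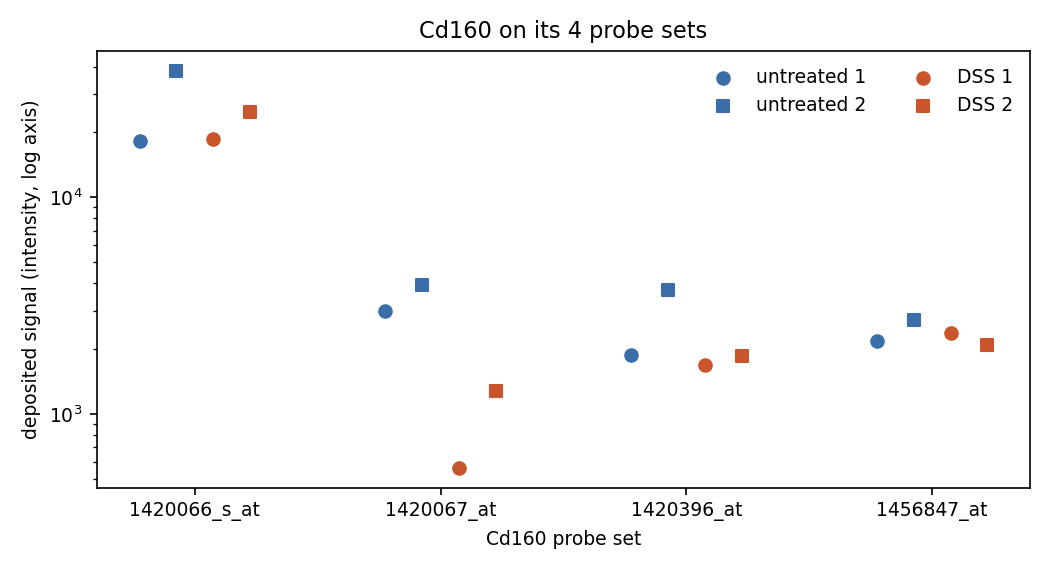
Deposited signal (log axis) of the 4 Cd160 probe sets on the 2 untreated (blue) and 2 DSS (orange) arrays; each point is 1 array. Both DSS points lie below both untreated points for 1420067_at, at 562 and 1276 against 2992 and 3945, and overlap them for 1420066_s_at and 1456847_at.

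RefSeq lists a pair of start regions for Cd160, both on the minus strand of build GRCm38.p6, and they are shown because its probe sets disagree. The upstream window is chr3:96829302-96829601 and the downstream one is chr3:96814472-96814771; the files used here do not say which start or exon a probe set reads. Capitals mark the same 4 kinds of letters as above.
Cd160 upstream start: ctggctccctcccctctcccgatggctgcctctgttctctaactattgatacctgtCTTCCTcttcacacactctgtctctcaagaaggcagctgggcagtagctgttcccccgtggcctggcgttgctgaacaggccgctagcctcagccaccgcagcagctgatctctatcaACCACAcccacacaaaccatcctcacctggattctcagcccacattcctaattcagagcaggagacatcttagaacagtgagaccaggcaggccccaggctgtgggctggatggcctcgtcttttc
Cd160 downstream start: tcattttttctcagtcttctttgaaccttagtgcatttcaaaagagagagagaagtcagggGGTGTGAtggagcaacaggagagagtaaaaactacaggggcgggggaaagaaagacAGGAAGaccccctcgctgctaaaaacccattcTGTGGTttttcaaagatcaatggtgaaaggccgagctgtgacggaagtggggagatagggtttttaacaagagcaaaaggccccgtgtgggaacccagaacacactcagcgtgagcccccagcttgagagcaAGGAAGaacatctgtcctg

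The downstream window held 1 T-box match, 1 RUNX match and 2 ETS matches, and the upstream window 1 RUNX match and 1 ETS match. The Cd96 window, not printed, held 2 RUNX matches. RUNX and T-box factors are known regulators of cytotoxic and intraepithelial lymphocytes, and their binding was not measured here.

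Cd96, Crtam and Cd226, the nectin-binding group, gave no separation of the groups. Cd96, which binds the poliovirus receptor Pvr, had 16970 and 24751 in the untreated pair and 17679 and 21625 in the DSS pair. Its log2 difference was -0.07 ± 0.38 (limma adjusted p = 0.965), with a 95% interval of -0.97 to 0.84. Crtam, which binds Cadm1, had 449 and 769 against 689 and 512, a log2 shift of 0.01 ± 0.45 (limma adjusted p = 0.997) and an interval of -1.05 to 1.08. For both genes the 2 DSS arrays lay between the untreated arrays. The activating receptor Cd226, which shares Pvr with Cd96, had 127 and 211 against 174 and 90.5, around or below array medians of 193.8 and 213.9 in the untreated pair and 157.1 and 163.3 in the DSS pair. Its groups overlapped, and so dim a signal does not show whether the transcript was present.

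Among the T-lineage molecules, Cd7 and Thy1 varied most between the untreated arrays. Cd7, a costimulatory immunoglobulin-type receptor, had 15358 and 47108 in the untreated pair and 17909 and 22273 in the DSS pair. Its log2 difference was -0.43 ± 0.56 (limma adjusted p = 0.834), with a 95% interval of -1.75 to 0.89. Thy1, a small lipid-anchored glycoprotein, had 4010 and 10953 against 6548 and 6230, a log2 shift of -0.05 ± 0.53 (limma adjusted p = 0.981) and an interval of -1.30 to 1.19. Both genes had their highest signal on untreated replicate 2 and their lowest on untreated replicate 1, with the DSS arrays between. Cd6, a scavenger-type receptor for Alcam, had 190 and 284 in the untreated pair and 225 and 91.4 in the DSS pair, a log2 shift of -0.57 ± 0.69 (limma adjusted p = 0.817). Its groups overlapped, and DSS replicate 2 was under that array's median.

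The untreated arrays lay further apart than the DSS arrays for 7 of 9 tested members, and for 67.6% of all genes. For 6 of 9 tested members (Cd160, Cd7, Cd244, Cd96, Crtam and Thy1) both DSS arrays lay between the untreated arrays, against 26.6% of all genes; this count was chosen after the values were seen. Untreated replicate 2 was the highest array for 6 of 9 members, Cd160, Cd7, Cd96, Crtam, Cd6 and Thy1, and for 37.9% of all genes. The log2 difference of untreated replicate 2 from replicate 1 was 1.61 for Cd7, 1.44 for Thy1, 1.07 for Cd160 and -0.94 for Cd244. The DSS pair differed by 0.31, -0.07, 0.41 and -0.11 on the same probe sets. The median size of the gap was 0.73 in the untreated pair and 0.31 in the DSS pair over the members, beside 0.68 and 0.36 over all genes. The mean log2 signal of the T cell markers, relative to its mean over the 4 arrays, was -0.50 and 0.38 on the untreated and 0.05 and 0.08 on the DSS arrays, although 2 of the 5 markers lay higher on both DSS arrays and 0 lower.

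Leaving out an untreated array adds no evidence for the 6 members whose DSS arrays lay between the untreated arrays. With either untreated array left out, both DSS arrays had to lie on the same side of the remaining one. The direction of these members therefore had to turn. Without untreated replicate 1, 7 members lay below and 2 above on both DSS arrays, where 47.7% of all genes lay below and 35.4% above, and limma called Cd7 (-1.24, adjusted p = 0.0102) and Cd69 (1.07, adjusted p = 0.0185). Without untreated replicate 2, 6 members lay above and 2 below, where 36.9% of all genes lay above and 42.1% below, and limma called 0 of 9, with Cd7 at 0.38 and Thy1 at 0.67. Over the 15 other settings the adjusted p was 0.0102 to 1.00 for Cd7 and 0.0185 to 1.00 for Cd69. With 1 untreated array left, the lone array is assumed to vary like the DSS pair, which is the closer pair, and limma then called 1791 and 755 of all genes, 14.4% and 6.08%. Cd69 stayed above and Slamf7 below with any 1 array left out, which had to follow because their groups did not overlap with all arrays in.

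**Figure D4:**
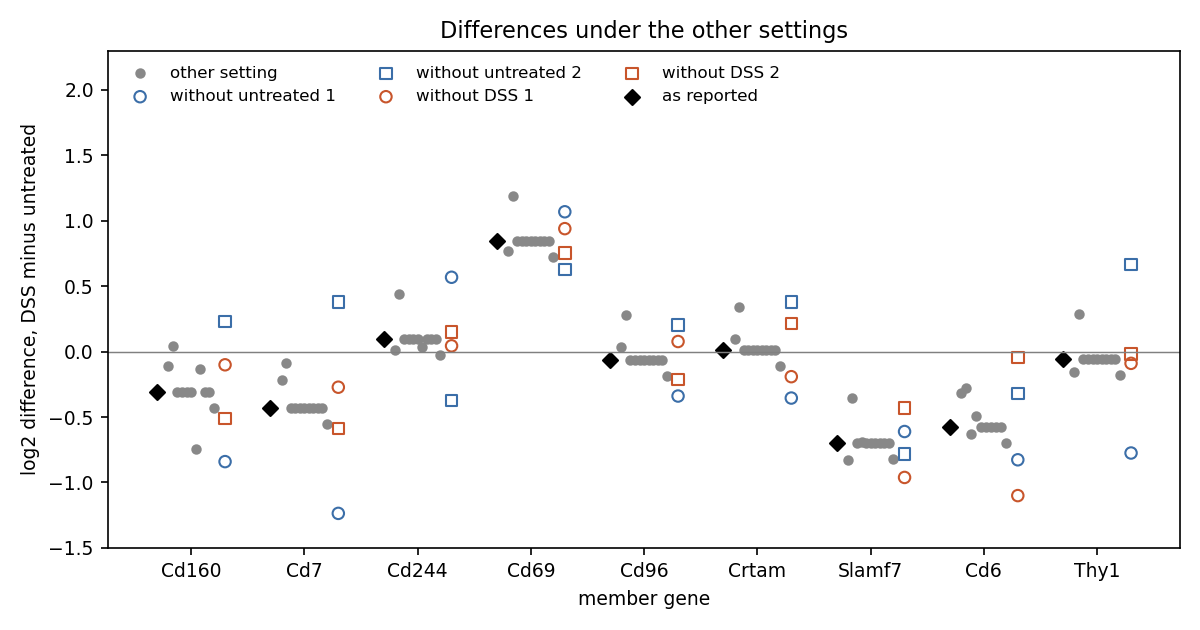
Log2 difference, DSS minus untreated, of the 9 tested receptor genes as reported (black diamond), with each array left out (open symbols) and under the other settings (grey). Cd69 is above 0 and Slamf7 and Cd6 below 0 throughout, while Cd7 runs from -1.24 to 0.38 with the untreated array that is left out. For Cd69 and Slamf7, whose groups did not overlap, leaving out an array could not turn the sign. For Cd7, whose DSS arrays lay between the untreated arrays, the sign had to turn with the untreated array left out.

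The ligands, relatives and adaptors of the receptors were read from a list of 28 genes, of which 26 were on the array under a single symbol and 22 passed the filter. Limma called 0 of 22 after adjustment over all genes and 2 at an unadjusted p under 0.05, again beside 7.52% of all genes. Of the 22, 5 lay higher and 4 lower on both DSS arrays, beside 17.2% and 23.8% of all genes, and their median log2 difference was 0.11. The SLAM relatives and the kinase Fyn had a median of 0.77 over 8 genes, of which 4 lay higher without overlap (Cd48, Ly9, Slamf8 and Slamf9) and 0 lower. The SLAM adaptors on the list were not tested. Sh2d1a did not pass the filter, and Sh2d1b1 had no single-symbol probe set. Ly9 and Slamf8 were under the array median on both untreated arrays and passed the filter only through the DSS arrays. The filter therefore favoured a higher count and median here.

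Ly9, a SLAM receptor that binds itself, had 182 and 89.5 in the untreated pair and 702 and 508 in the DSS pair. Both DSS arrays were above both untreated arrays by a log2 shift of 1.96 ± 0.54 (limma unadjusted p = 0.00816, adjusted p = 0.649). Both untreated signals were under their array medians of 193.8 and 213.9, so Ly9 passed the filter only through the DSS arrays. Its separation and p-value are therefore not independent of the filter. Slamf9, a relative found on macrophages and dendritic cells, had 346 and 163 against 609 and 900, a log2 shift of 1.51 ± 0.51 (limma adjusted p = 0.649). Cd48, the ligand of Cd244 and widespread on blood cells, had 2090 and 4194 against 4363 and 4824, a log2 shift of 0.63 ± 0.45 (limma adjusted p = 0.716). The macrophage and dendritic cell markers were higher in the same DSS samples, and their part in these values was not tested. The kinase Fyn, which signals under SLAM adaptors, had overlapping groups on its brightest probe set, with 6253 and 8248 against 6304 and 5425. On its other kept probe set both DSS arrays lay lower, with 1423 and 1880 against 1208 and 1022, a log2 shift of -0.54.

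Ligands of the other receptors had estimates of both signs. Of 5 nectins and related genes tested, 0 lay higher and 2 lower without overlap, beside 17.2% and 23.8% of all genes. Their median log2 difference was 0.22. Nectin1 had 641 and 1400 in the untreated pair and 465 and 613 in the DSS pair on its brightest probe set, a log2 shift of -0.79 ± 0.49 (limma adjusted p = 0.688). Its other kept probe set had 312 and 240 against 99.2 and 16.5, a log2 shift of -1.94. That probe set passed the filter only through the untreated arrays. Cadm1, the Crtam ligand, had 393 and 332 against 228 and 231 on its brightest probe set, a log2 shift of -0.59 ± 0.48. Its other kept probe set had 168 and 169 against 462 and 223, a log2 shift of 0.82. This one passed the filter only through the DSS arrays, so its direction is not independent of the filter. Pvr varied more within the untreated pair than between groups, with 453 and 37.5 against 218 and 460.

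In the HVEM axis of Cd160, HVEM itself (Tnfrsf14) was on the array but did not pass the filter and was not tested. Tnfsf14 (LIGHT), a ligand of HVEM, had 482 and 363 in the untreated pair and 163 and 179 in the DSS pair. It lay lower on both DSS arrays by a log2 shift of -1.15 ± 0.50 (limma adjusted p = 0.649). A second, dimmer probe set, at -0.25, did not pass the filter and adds little. Btla, an inhibitory receptor that shares HVEM with Cd160, had 259 and 483 against 349 and 358, and its DSS arrays lay between the untreated ones. Alcam, the Cd6 ligand, had 268 and 525 against 235 and 45.0, a log2 shift of -1.51 ± 0.78 (limma adjusted p = 0.655). Its 4 dimmer probe sets, between -0.26 and -0.06, did not pass the filter and add little. The integrin chain Itgav, a partner of Thy1, lay higher on both DSS arrays on its brightest probe set. This had 10119 and 10490 against 14140 and 12210 and a log2 shift of 0.35 ± 0.35 (limma adjusted p = 0.786). The groups overlapped on its other kept probe set, with 10.6 and 179 against 171 and 178. That probe set passed the filter only through the DSS arrays.

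**Figure D5:**
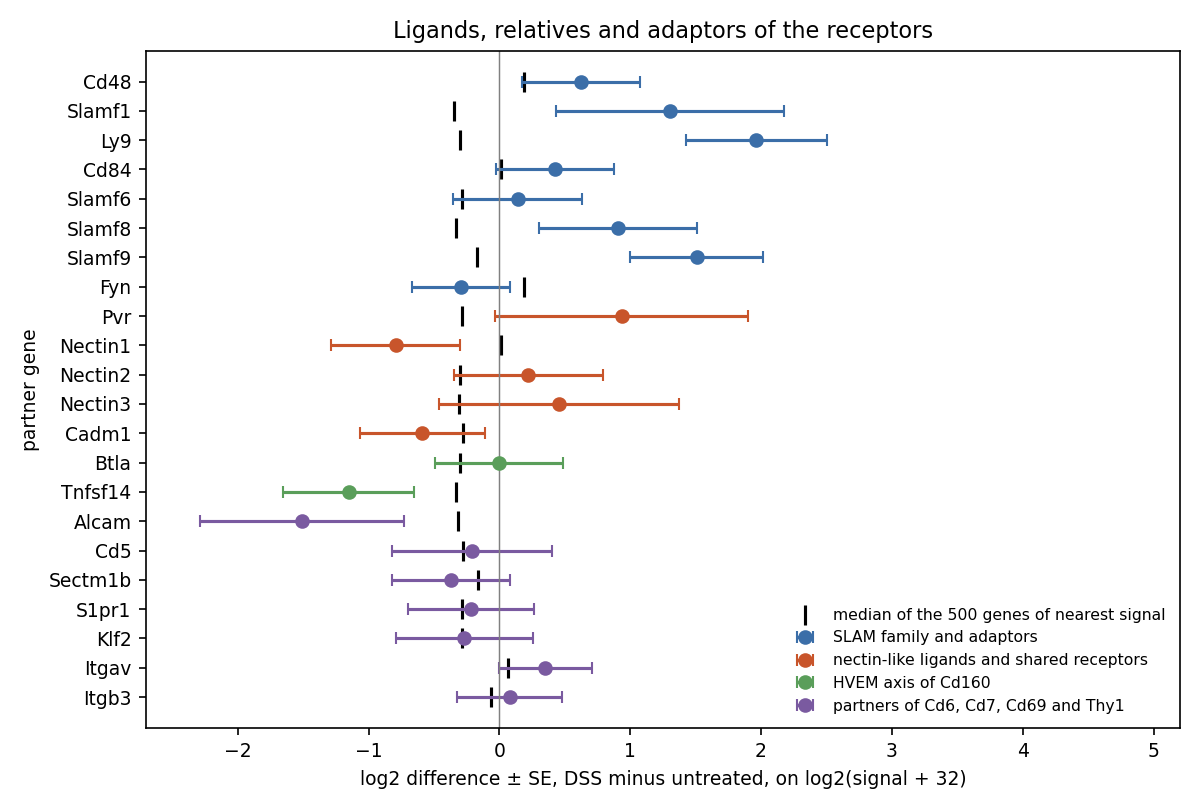
Log2 difference, DSS minus untreated, with limma standard errors for the 22 tested partner genes, coloured by group; the black tick is the median of the 500 genes of nearest signal. Ly9 at 1.96 and Slamf9 at 1.51 are the 2 SLAM relatives with an unadjusted p under 0.05, and 0 of the 22 passed adjustment. Ly9 passed the filter only through the DSS arrays.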

How the data were processed

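Signals of 45101 probe sets on 4 one-colour arrays were used as deposited. The deposited intensity values are linear and were made by the authors with GCOS, per the submitters' processing notes; the sources used here do not state its version or settings. Each array's mean without the lowest and highest 2% of values is 500, so arrays were scaled before deposit. A platform table gave 34958 probe sets 1 symbol, 932 several and 9211 none; the 64 control probe sets were left out. Detection calls were not used, and the number of arrays limits the precision.

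Signals were taken as log2(signal + 32). Probe sets were kept when above their array's median on at least 2 of 4 arrays, and the kept probe set with the highest mean stood for its gene. DSS was compared with untreated by limma 3.58.1 in R 4.3.3 (intensity trend, group as the only term, Benjamini-Hochberg at 0.05) over 12424 genes and, separately, over 20224 kept probe sets. The step was run on simulated data with equal spread for all genes and both groups, unlike these arrays. Only the mean size of its estimates was held to a limit there. All members were named with every probe set, and from each partner group the 2 genes with the largest moderated t; Cd48, Fyn, Pvr, S1pr1, Klf2, Slamf8, and Csf1r were named after their values were seen. Members and lists were chosen with earlier results of these data known. Of 15 alternatives, 14 were planned and scaling to T cell markers was added after seeing the data. Same-numbered arrays did not deviate together (r = 0.05 across genes), so replicate numbers were not taken as pairs.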

Additional observations from a re-analysis of the deposited data

How the results depend on the processing

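The adjusted calls among the 9 members, 0 as reported, changed in 1 of 15 settings, to 2 without untreated replicate 1; over the 4 single-array omissions they were 0 to 2, and 0 to 4 for member probe sets. All genes called, 0 as reported, were 0 to 1791 in these omissions, 1 with signals above the median on all 4 arrays, 3 with probe sets averaged and 67 with the replicate block, under which 0 members were called. Averaging was not run for single probe sets. Members higher without overlap, 1 as reported, were 0 after scaling to T cell markers and 1 to 6 in the omissions. Members lower, 1 as reported, were 0 after common-median scaling, 2 with probe sets averaged (Cd160 joined), 3 after scaling to T cell markers (Cd160, Cd7 and Slamf7) and 1 to 7 in the omissions. Of all genes, 10.5% were higher and 25.8% lower after T cell scaling, and 25.5% to 36.9% were higher and 34.3% to 47.7% lower in the omissions. The members' median was 0.28 after common-median scaling, which also moved all genes to 0.25, -0.19 without the filter, which admits Cd226, -0.19 after scaling to T cell markers and -0.61 to 0.23 in the omissions.

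Signs turned as follows, and beyond the construction of each setting the cause was not tested. Common-median scaling gave Cd160 0.0400, Cd96 0.28 and Thy1 0.29, quantile normalization gave Cd96 0.0329, and T cell scaling gave Cd244 -0.0246 and Crtam -0.11. Omissions gave Cd160 -0.84 to 0.23, Cd7 -1.24 to 0.38, Cd244 -0.37 to 0.57, Cd96 -0.34 to 0.20, Crtam -0.36 to 0.38 and Thy1 -0.78 to 0.67. For these 6 members the turn had to follow, since both DSS arrays lay between the untreated arrays. Common-median scaling raised the share of all genes higher without overlap from 17.2% to 30.9% and cut the share lower from 23.8% to 12.5%.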
